A study of Mus musculus with 2 samples.

Results

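The genes described here encode the neuronal microtubule cytoskeleton and its transport machinery: kinesin heavy and light chains, cytoplasmic dynein and dynactin subunits, tubulins, neurofilament subunits, the microtubule-associated proteins Map1a, Map1b, Map2, Map6 and Mapt, and the stathmins. Members were all genes with a matching symbol to which the annotation of the Mouse Genome 430 2.0 platform assigned a probe set of their own. This gave 82 genes of 18193 on the array, seen by 189 probe sets. Total hypothalamic RNA of Crtc1 knockout mice and of wild-type controls was hybridised to Affymetrix expression arrays, with 1 array per genotype. Both groups were males of 12 weeks that went without food for 18 h and had then been given food again for 6 h, and each array received an equal mix of RNA from 3 animals. The sources used here give neither the strain nor the way the Crtc1 allele was made.

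Microtubules are polymers of alpha and beta tubulin, nucleated on gamma tubulin and arranged by associated proteins in axons and dendrites. Most kinesins carry cargo towards the plus end, which faces the axon tip, and cytoplasmic dynein with its cofactor dynactin carries cargo back to the cell body. Neurofilaments are intermediate filaments that set the calibre of large axons, and in the hypothalamus this transport system moves peptide granules to distant terminals. Crtc1 binds CREB and coactivates its target genes, and by its title the study concerns energy balance and fertility. The comparison here asks how far transcripts of this machinery differed between the hypothalamus of the knockout and that of the wild type.

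With 1 array per genotype there is no replicate, no test between genotypes and no p-value. The pools stand for the spread of neither genotype. All values are probe-set signals as deposited, and differences are log2 signal in the knockout pool minus that in the wild-type pool. Probe sets whose mean over the pools was at least the median of all probe sets, a signal of about 52.3, are called measured. Where a gene had several of these, the brightest one stood for it. The array error beside a value is the SD between measured probe sets of the same gene at that signal, from 0.32 at the lowest signals to 0.16 above a mean log2 signal of 10. It holds no spread between animals. Fewer cells of a type and less RNA per cell cannot be told apart in such tissue RNA.

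By its brighter measured probe set Crtc1 read 85.1 in knockout and 631 in wild-type RNA, 7.42-fold lower, in the direction of the labels. Of 9 hypothalamic marker genes 6 were measured, while Sim1 and Nkx2-1, regional transcription factors, were not, and Agrp has no probe set paired with it alone. Pmch, the melanin-concentrating hormone gene, read 3341 and 3498 in knockout and wild type, and Hcrt, the orexin gene, 817 and 883. Other neuropeptide genes were further apart, with Avp, the vasopressin gene, at 1690 and 1149, Oxt, the oxytocin gene, at 969 and 695, and Pomc at 136 and 174. A dimmer measured probe set of Pomc went the other way, at 67.2 and 43.2, so Pomc had no settled direction. The part of these genes in the members' differences was not tested. By their brightest probe sets neuron markers were close together, with 6 of 6 measured, a median difference of -0.0081, and summed signals of 22018 and 21914. Dimmer probe sets of Syt1, at 1536 and 1906, and Elavl4, at 431 and 534, were each lower by 0.31. These were past their array errors of 0.16 and 0.23. Another dimmer probe set of each gene was higher, at 0.057 and 0.10, within its array error. The ratio of 3' to 5' actin signal, which rises with RNA degradation, was 1.47 in the knockout and 1.25 in the wild-type pool, and that of Gapdh 0.863 and 0.873.

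The cytoskeletal transcripts of the pools were close to each other. Of the 82 genes, 60 were measured, and none of them differed at least 1.5-fold in either direction, while 2.06% of all measured genes were at least 1.5-fold higher and 1.44% at least 1.5-fold lower in the knockout pool. At 1.2-fold, 2 of the 60 (3.33%) were higher and 4 (6.67%) lower, against 11.9% and 9.97% of all measured genes. The higher ones were Dync1li1, a dynein light intermediate chain, and the kinesin Kif6. The lower ones were Nefh, the heavy neurofilament subunit, Dctn6, a dynactin subunit, Kif17, a kinesin of dendrites and cilia, and Tubg1, a gamma tubulin. The median over the 60 was -0.025, with 25 higher and 35 lower. Over all 11312 measured genes it was 0.0041, with 5754 higher and 5545 lower. After loess scaling the median difference of all measured members was 0.00079, so its sign was not kept.

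These genes are bright as a set, and bright signals vary less between arrays, so the background was also read by signal. Above a mean log2 signal of 10 lay 32 members, whose differences ran from -0.14 to 0.21. Of the 32, 22 were lower, beside 1005 of the 1790 measured genes in that range. None of the 32 reached 1.2-fold, where 1.96% of those 1790 genes were higher and 2.74% lower. Their SD was 0.10, against 0.13 over all genes of that range. From 8 to 10 there were 20 members, of which 1 was at least 1.2-fold higher and 3 (15%) lower, beside 6.39% and 8.14% of genes in that range. Their SD was 0.23, against 0.19 for all genes there. Below 8, 1 of 8 members lay past 1.2-fold in each direction, beside 21% higher and 14.4% lower. The 1.5-fold limit, which no member passed, was passed by 0.469% of genes upwards and 0.511% downwards from 8 to 10, and by 4.37% and 2.82% below 8. In all, 48 of the 60 (80%) differed by less than their array error, as did 74.8% of all measured genes. By signal, these shares of members and genes were 90.6% and 79.8% above 10. They were 65% and 79.0% from 8 to 10, and 75% and 69.0% below 8. The 12 members past their array error were 5 higher and 7 lower.

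**Figure D1:**
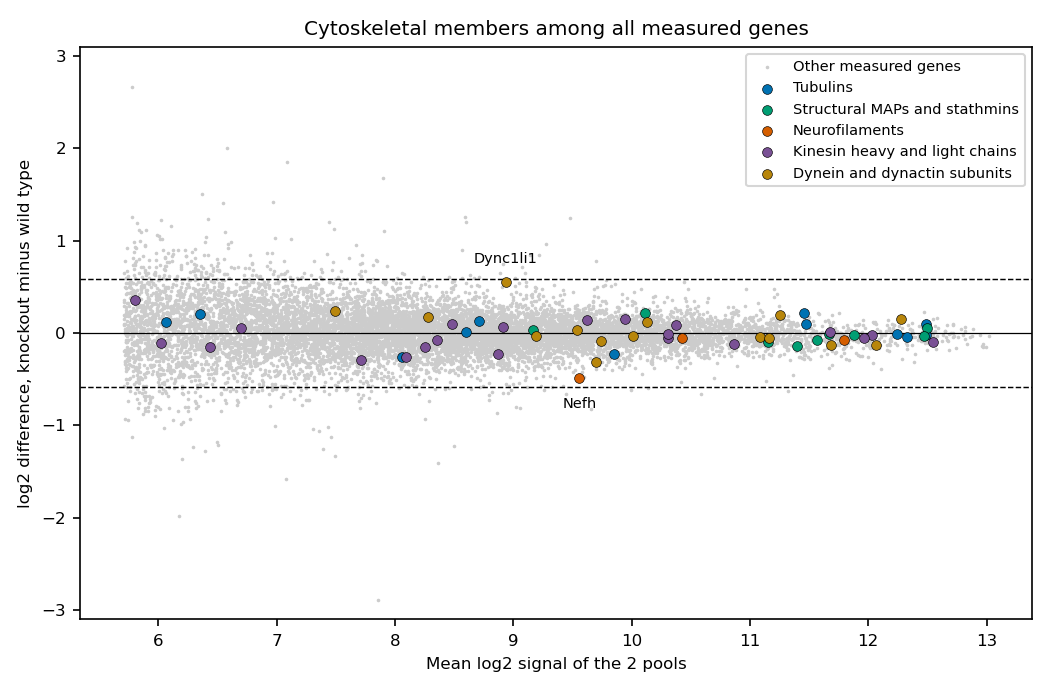
Difference between the pools (knockout minus wild type, log2) against the mean log2 signal of the pools, for every measured gene (grey) and the 60 measured members (coloured by class); dashed lines mark 1.5-fold. All 60 members lie between the dashed lines, with Dync1li1 at 0.56 and Nefh at -0.49 nearest to them.

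Because Crtc1 acts with CREB, whose binding motif is the cAMP response element, the promoters of the members were searched for its letters. The RefSeq promoter table, build GRCm38.p6, holds 250 bases before to 50 after the start of 59 of the 82 genes. The full element TGACGTCA, a palindrome and so the same on both strands, was found in 6 of these (10.2%), beside 2.03% of all 27025 genes in the table. Among measured genes it was found in 5 of 40 members, beside 3.61% of the 9172 in the table. The shorter core, TGACG or CGTCA, which lies within the full element, occurred in 22 of the 59 (37.3%), beside 23% of all genes in the table. Among measured genes it occurred in 15 of 40 members, beside 36.1% of all measured genes in the table. A match is a description of letters and not a bound site. In the measured members the element lay before the start, and their 120 bases up to the start are printed because they hold the letters that CREB is known to bind. Capitals mark the element. The stretches are chr2:49619166-49619285, plus strand for Kif5c, chr12:111758748-111758867, plus strand for Klc1, chr13:34078009-34078128, minus strand for Tubb2a, chr4:41723164-41723283, minus strand for Dctn3 and chr4:138262131-138262250, plus strand for Kif17.
Kif5c: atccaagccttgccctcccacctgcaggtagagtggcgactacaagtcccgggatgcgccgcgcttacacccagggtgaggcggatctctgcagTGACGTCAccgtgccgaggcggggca
Klc1: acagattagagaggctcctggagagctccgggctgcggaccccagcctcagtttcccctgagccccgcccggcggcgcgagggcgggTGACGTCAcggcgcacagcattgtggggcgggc
Tubb2a: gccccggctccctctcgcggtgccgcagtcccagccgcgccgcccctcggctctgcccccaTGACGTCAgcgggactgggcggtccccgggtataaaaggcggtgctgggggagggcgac
Dctn3: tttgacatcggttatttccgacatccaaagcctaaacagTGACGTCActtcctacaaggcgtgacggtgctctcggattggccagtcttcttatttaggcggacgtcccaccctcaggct
Kif17: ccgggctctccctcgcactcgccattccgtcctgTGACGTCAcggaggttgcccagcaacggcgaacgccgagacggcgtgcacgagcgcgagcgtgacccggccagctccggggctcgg

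The genes carrying these elements differed little between the pools. Kif5c, a neuronal kinesin-1 heavy chain, read 3290 in knockout and 3273 in wild-type RNA. Klc1, the light chain that links kinesin-1 to cargo, read 3926 and 4075. Both readings of each gene were thus nearly equal, with log2 differences of 0.0075 and -0.054. Tubb2a, a neuronal beta tubulin, read 2938 and 2746, a difference of 0.098. Dctn3, a small dynactin subunit, read 1168 and 1075, a difference of 0.12. Kif17, which carries receptor cargo in dendrites, was the one past its array error, at 190 and 233, a difference of -0.29 with an array error of 0.26. The 5 had a median of 0.0075, with 3 higher and 2 lower, and the 35 measured members in the table without the element had a median of -0.010. The sign of Kif5c turned under 1 of the 3 scalings, and its other probe sets were lower, at -0.10 and -0.29. The second probe set of Kif17 was within its array error, at -0.087. The other gene with the element, the mitotic kinesin Kif18a, was not measured.

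**Figure D2:**
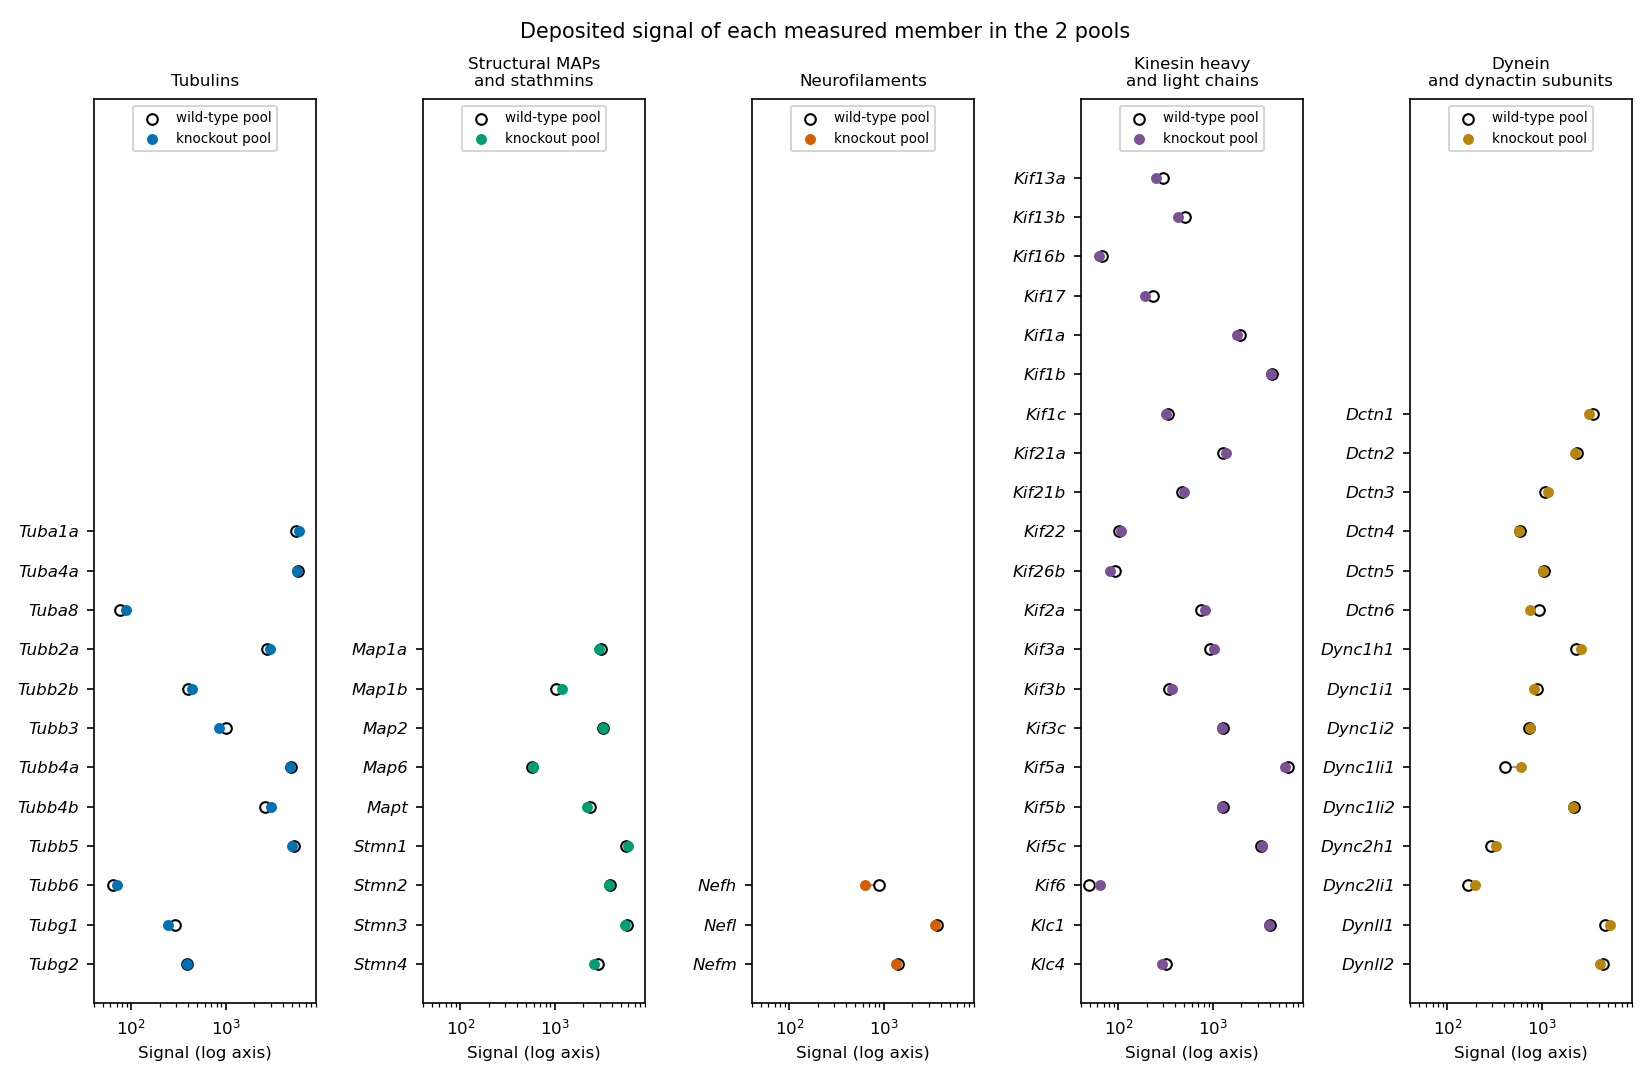
Deposited signal of each of the 60 measured members by its brightest measured probe set, on a log axis, in the wild-type pool (open) and the knockout pool (filled), 1 array each. The 2 points of most genes overlap; Dync1li1 (594 against 404) and Nefh (636 against 895) are the most separated.

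Tubulins, the subunits of the polymer itself, showed small differences in both directions. Of 15 tubulin genes 12 were measured, 7 higher and 5 lower, with a median of 0.054. Among the alpha tubulins, Tuba1a, the main form of developing and adult neurons, read 5939 in the knockout and 5555 in the wild-type pool, a difference of 0.097 by 1 probe set. Tuba4a read 5706 and 5795, a difference of -0.022 whose sign was not kept under every scaling. Tuba8 read 87.9 and 76.1, a difference of 0.21 within its array error of 0.32. Each of the 3 measured alpha tubulins was therefore within its array error. Near-identical alpha tubulin transcripts can cross-hybridise, and the Tuba1a probe set is of the kind that can match several transcripts.

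Beta tubulins had a median of 0.098 over 7 genes, 4 higher and 3 lower. Tubb4b, a widely expressed form, read 3033 against 2614, a difference of 0.21 past its array error of 0.16. Its dimmer measured probe set read 95.1 against 119, a difference of -0.33. Tubb4b thus had no settled direction, and averaging its probe sets gave -0.056. Tubb3, the form restricted largely to neurons, read 852 against 1001, a difference of -0.23 with an array error of 0.21. It kept its sign under every scaling, and it rests on 1 probe set. Tubb2b, mutated in human cortical malformations, read 438 against 400, a difference of 0.13. Tubb4a, the form abundant in oligodendrocytes, read 4845 and 4875, and Tubb5 read 5079 and 5231, both within 0.05. Tubb6 read 69.9 and 64.5, a difference of 0.12, by 1 of its 2 probe sets, and the other was under the floor in both pools. With the probe sets of a gene averaged, the beta tubulin median was 0.012.

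Gamma tubulins seed microtubules in the ring complex. Tubg1 read 244 in knockout and 292 in wild-type RNA, a difference of -0.26 with an array error of 0.23. Tubg2, the brain-enriched copy, read 389 and 387, a difference of 0.011 whose sign turned under 1 of the 3 scalings. Tubg1 was thus lower and Tubg2 level, each by 1 measured probe set.

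The structural MAPs, which space and stabilise microtubules, were within 1.2-fold by their brightest probe sets. Their median was -0.010, with 2 higher and 3 lower. Map2, the dendritic member, read 3234 and 3258, and the sign of this difference turned under 2 of the 3 scalings. Its 4 measured probe sets were all lower in the knockout pool, from -0.010 to -0.38. The last read 169 against 220 and was past its array error of 0.26. Mapt, the gene of the axonal protein tau, read 2208 and 2357, a difference of -0.094, and its 4 probe sets ran from -0.13 to 0.0082. Map1a read 2958 and 3121, a difference of -0.077, and its other probe set, at 305 and 349, differed by -0.20. Both readings of Map1a were lower, the first within its array error of 0.16 and the second within 0.23.

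Map1b, the growth-associated relative of Map1a, went the other way. It read 1190 against 1026, a difference of 0.21 past its array error of 0.16. A second probe set differed by -0.020 and another, dimmer one, at 95.0 against 77.4, by 0.30. Map6, which makes microtubules resistant to cold, read 583 and 570, a difference of 0.033 that lost its sign under 1 scaling. Its dimmer probe set, at 159 against 118, differed by 0.44, past its array error of 0.26. Over all 15 measured MAP probe sets 10 were lower, and none reached 1.5-fold.

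Stathmins bind free tubulin and destabilise microtubules. Stmn1 read 5893 and 5668, a difference of 0.056 that lost its sign under 1 scaling. Its dimmer probe set was 1.27-fold higher, at 445 against 349, a difference of 0.35 past its array error of 0.23. Stmn2, which is needed for axon regrowth, read 3734 and 3795, and Stmn3 read 5602 and 5747, differences of -0.024 and -0.037. The sign of Stmn2 turned under 2 scalings. Stmn4 read 2573 against 2839, a difference of -0.14. All 4 stathmins lay within their array errors by the brightest probe set.

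Neurofilament transcripts were lower in the knockout pool for all 3 subunits, with a median of -0.078, where 5545 of all 11312 measured genes were lower. They stayed lower under the 3 scalings and in the rest of the 11 alternative settings. Other floors and filters, however, could not move signals as bright as these. Nefh, which carries the heavily phosphorylated tail, read 636 against 895. It was 1.41-fold lower, a difference of -0.49 with an array error of 0.21, and it rests on 1 probe set. The differences of Nefh over the settings ran from -0.55 to -0.48. Nefl, the core subunit, read 3460 against 3653 by one probe set and 3369 against 3681 by the other, differences of -0.078 and -0.13. Nefm, the middle subunit, read 1347 and 1400, a difference of -0.055. Nefl and Nefm were within their array error of 0.16, so Nefh alone of the subunits lay past it. Ina, internexin, which co-assembles with them, read 2448 and 2551, a difference of -0.059; it was chosen after its values were seen.

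**Figure D3:**
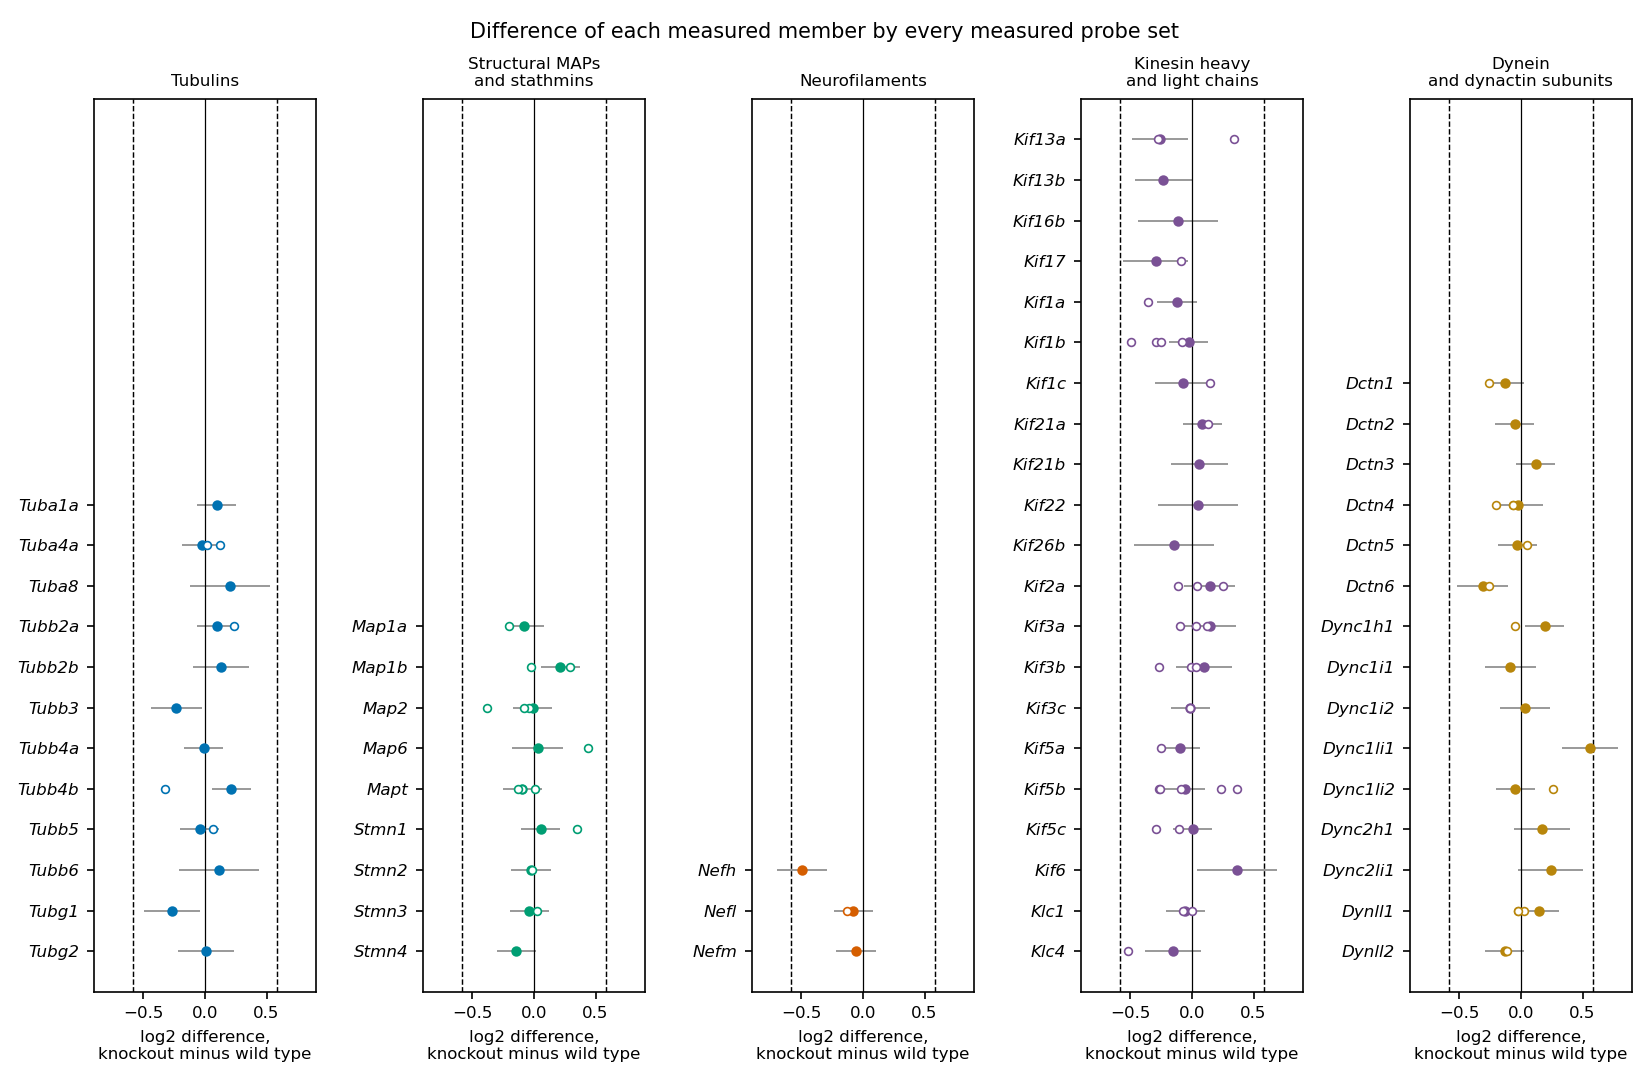
Difference between the pools (knockout minus wild type, log2) of each measured member by its brightest probe set (filled, with a bar of 1 array error either way) and by its other measured probe sets (open); dashed lines mark 1.5-fold. No point crosses a dashed line, and the points of Kif5b, Tubb4b and Kif13a fall on both sides of 0.

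Kinesin heavy chains, the motor subunits, numbered 37 on the array, of which 19 were measured, 8 higher and 11 lower, with a median of -0.026. The kinesin-1 motors of fast axonal transport were within their array errors by the brightest probe sets, while a dimmer probe set of each was lower by more than its array error. Kif5a read 5796 and 6180, a difference of -0.093, and its dimmer measured probe set, at 1380 and 1639, differed by -0.25. Kif5b, the ubiquitous form, read 1243 and 1292, a difference of -0.055, and its 6 probe sets ran from -0.27 to 0.37. The highest of these, at 64.3 against 49.8, was past its array error of 0.32 too, so Kif5b had no settled direction. Of the 11 measured kinesin-1 probe sets 8 were lower. The light chains gave -0.054 for Klc1 and -0.15 for Klc4, whose other probe set was 1.43-fold lower at 67.7 against 97.1. That probe set differed by -0.52, past its array error of 0.32.

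The kinesin-3 family, which carries synaptic vesicle precursors and dense-core granules, was lower in all 6 measured genes by the brightest probe set, with a median of -0.11. The sign of Kif1b turned under 2 of the 3 scalings, and Kif1c was 0.035 with its probe sets averaged. Kif1a, the vesicle precursor motor, read 1791 against 1948 and, by its other probe set, 1451 against 1853. Both of its readings were lower, at -0.12 and -0.35, the second past its array error of 0.16. Kif1b read 4156 and 4232, a difference of -0.026. Its other 4 measured probe sets were all lower too, the dimmest at 104 against 146, a difference of -0.50 with an array error of 0.32. Kif13a read 250 against 299 and Kif13b 432 against 507, differences of -0.26 and -0.23, each just past an array error of 0.23. One of the 3 probe sets of Kif13a was higher, at 0.34. Over the family, 12 of 14 measured probe sets were lower and none reached 1.5-fold. Probe sets of the same gene are not separate readings of the family. Of all 11312 measured genes 5545 were lower, and of the 1790 above a mean log2 signal of 10, 1005 were.

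Kinesin-2 motors drive transport along cilia and in axons. Kif3a read 1038 and 937, Kif3b 370 and 346 and Kif3c 1260 and 1271, differences of 0.15, 0.097 and -0.012. Other probe sets of Kif3b ran down to -0.27, so that its mean over probe sets was -0.036. By their brightest probe sets the 3 were within their array errors, and the sign of Kif3c turned under 1 scaling. Kif2a, a kinesin that depolymerises microtubule ends, read 830 and 751, a difference of 0.14. Kif21a and Kif21b, motors that slow microtubule growth, differed by 0.084 and 0.061. Kif6 read 63.4 against 49.3, the largest difference among the kinesins at 0.36, with an array error of 0.32 at that dim signal. The remaining measured kinesins, Kif16b, Kif22 and Kif26b, read between 62.7 and 106 and were within their array errors.

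Most kinesins of cell division were too dim to be compared. Of the 82 members 22 were not measured, 18 of them kinesins, and all 10 of Kif11, Kif14, Kif15, Kif18a, Kif18b, Kif20a, Kif20b, Kif23, Kif2c and Kif4, motors of the spindle and of cell division, were among these. The 38 probe sets of the unmeasured genes spanned 0.4 to 59.4 in knockout RNA and 0.1 to 58.4 in wild-type RNA. In 18 of them both pools were at or under the floor, a signal of 20.5 in the knockout and 20.2 in the wild type, and in 8 both pools were above it. Kif22, a chromokinesin of the spindle, was measured by 1 of its 3 probe sets and is given above. Its other probe sets were at or under the floor in both pools. Of 5 cycling-cell markers, 4 have a probe set of their own on the array, and none of these was measured.

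Dynein, the minus-end motor, included the largest difference among the members. Dync1li1, a light intermediate chain that binds cargo adaptors, read 594 in knockout against 404 in wild-type RNA. It was 1.47-fold higher, a difference of 0.56 with an array error of 0.23, by its only probe set, and from 0.50 to 0.57 over the 3 scalings. Its paralog Dync1li2 read 2135 and 2202 by one probe set and 1484 against 1238 by the other, differences of -0.044 and 0.26, and so had no settled direction. The second of these was past its array error of 0.16. Dync1h1, the motor heavy chain, read 2611 against 2284, a difference of 0.19 past its array error of 0.16, while a dim second probe set read 64.1 and 66.2. The intermediate chains Dync1i1 and Dync1i2 differed by -0.087 and 0.033, the latter with a sign that turned under 1 scaling. The other 4 subunits of this motor lay between -0.087 and 0.19.

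The light chains of the LC8 type are hubs found in dynein and in many other complexes. Dynll1 read 5220 and 4713 by its brightest probe set, a difference of 0.15, and its 4 probe sets ran from -0.025 to 0.15. Dynll2 read 4094 and 4480, and both of its probe sets were lower, at -0.13 and -0.11. Cytoplasmic dynein 2, the motor of transport inside cilia, was higher in both measured subunits: Dync2h1 read 330 against 293 and Dync2li1 196 against 166, differences of 0.17 and 0.24 within their array errors of 0.23 and 0.26. Markers of ciliated ependyma, another cell type of this tissue, were 2 higher and 2 lower of 4 measured, with summed signals of 370.3 and 327, and their part in this was not tested.

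Dynactin, which links dynein to cargo, was lower in 5 of 6 subunits, with a median of -0.041, and in 10 of its 12 measured probe sets. Of all 11312 measured genes 5545 were lower. Dctn6, at the pointed end of the complex, read 747 against 925 and, by its other probe set, 366 against 437. Both probe sets of Dctn6 were thus lower, at -0.31 and -0.26, each past its array error of 0.21 and 0.23. Dctn1, the large arm that holds microtubules, read 3142 and 3437 by one probe set and 1258 and 1503 by the other, differences of -0.13 and -0.26. The second of these was past its array error of 0.16. All 4 measured probe sets of Dctn4 were lower, from -0.027 to -0.20. Dctn2 and Dctn5 differed by -0.052 and -0.029, and Dctn3 by 0.12. With its probe sets averaged Dctn5 was 0.011.

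Repeat readings by several probe sets agreed in sign for part of the members. Of the 36 members with at least 2 measured probe sets, all probe sets had one sign in 18 (50%), beside 42.5% of the 5199 such genes on the array. Of the 122 measured probe sets of the members, 7 were at least 1.2-fold higher (5.74%, beside 13.9% of all measured probe sets with 1 gene) and 14 lower (11.5%, beside 11.8%). None of the 122 reached 1.5-fold, where 2.65% of all were higher and 1.79% lower. Of the 60 members, 48 kept their sign under all 3 scalings and 12 did not.

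Genes that work with these members were read from lists written for this comparison. None of the 18 measured tubulin folding and modification genes reached 1.5-fold, where 2.06% of all measured genes were higher and 1.44% lower. Their median was -0.044, with 14 lower and 4 higher, beside 5545 lower of all 11312 measured genes. Within their array error were 14 of the 18. Tbcd, a cofactor that assembles the tubulin dimer, was furthest, at 421 against 620, a difference of -0.56, with its other probe set at -0.21. Ttll1, a tubulin polyglutamylase subunit, read 569 against 454, a difference of 0.33. Of 24 other microtubule-associated and plus-end proteins none reached 1.5-fold either, and Camsap3, which caps minus ends, and Map1s, a relative of Map1a, were lowest at -0.42 and -0.40.

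Motor adaptors and dynein regulators had a median of -0.029 over 32 genes, and 19 of these were within their array error. At least 1.5-fold higher was 1 of the 32 and lower 1, beside 2.06% and 1.44% of all measured genes. Below a mean log2 signal of 8, where both of these lay, the shares were 4.37% and 2.82%. Hook2, a dynein adaptor, read 64.7 against 104, and Grip1, which couples receptor cargo to kinesin, 98.2 against 64.9, differences of -0.68 and 0.60 at dim signals. At brighter signals Hap1, the huntingtin-associated adaptor abundant in hypothalamus, read 1400 against 1959, a difference of -0.48 with an array error of 0.16. Rhot2, a mitochondrial motor anchor, read 354 against 503, a difference of -0.51. Dynlrb1, a dynein light chain of another family, read 2702 against 2068, a difference of 0.39 with an array error of 0.16. Hap1, Rhot2 and Dynlrb1 each rest on 1 probe set, and Hap1 and Dynlrb1 were chosen after their values were seen.

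Of the 17 measured severing and nucleation genes 10 were higher and 7 lower, with a median of 0.045. Haus8, an augmin subunit, was 2.35-fold lower at 51.0 against 120, and Haus7, of the same complex, 1.51-fold higher at 68.6 against 45.5. Each rests on 1 dim probe set with an array error of 0.32. Below a mean log2 signal of 8, 4.37% of all measured genes were at least 1.5-fold higher and 2.82% lower. Other intermediate filament genes had a median of -0.20 over 10, with 7 lower, beside 5545 of all 11312 measured genes. Nes, which encodes nestin, was 1.52-fold lower at 47.3 against 72.1, a signal as dim as those of Haus7 and Haus8. Its other probe set was within its array error, at -0.25. Among 20 kinases and phosphatases that act on tau and neurofilaments none reached 1.5-fold, where 2.06% of all measured genes were higher and 1.44% lower. Cdk5r2, an activator of the kinase Cdk5, read 679 against 496, a difference of 0.45, and Ppp2cb, a catalytic subunit of phosphatase 2A, 1293 against 1615, a difference of -0.32.

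**Figure D4:**
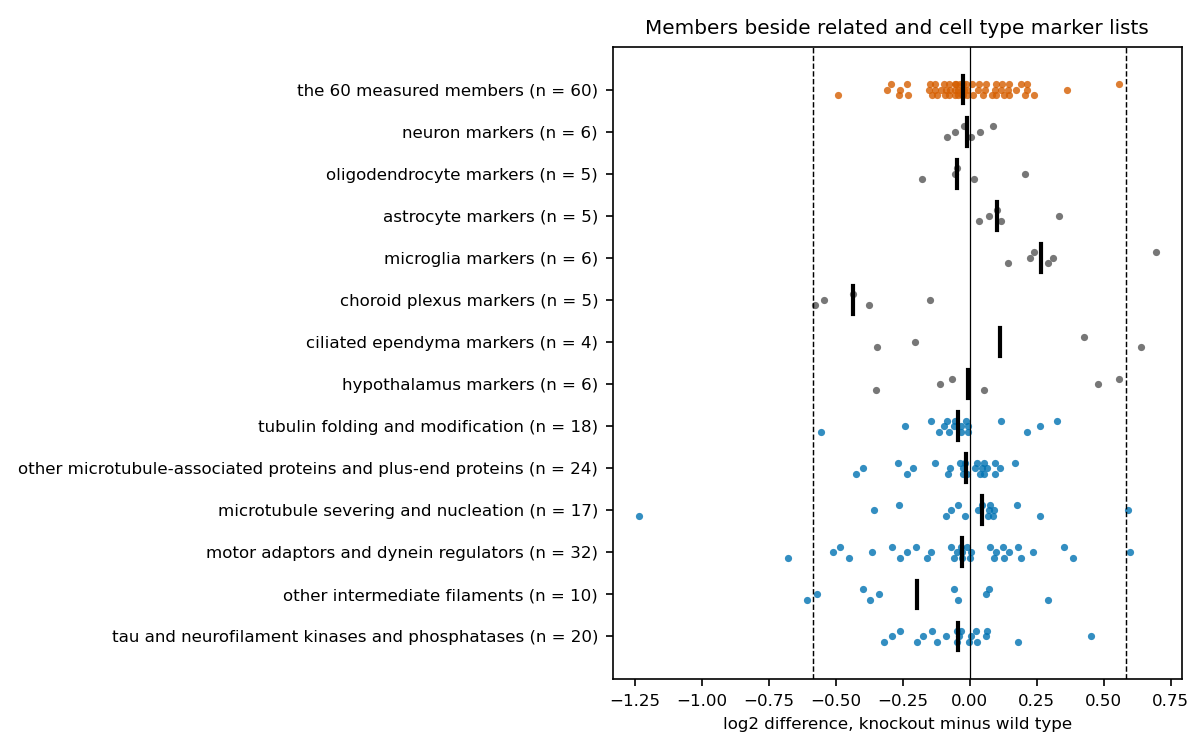
Difference between the pools (knockout minus wild type, log2) of each measured gene in the 60 members (orange), in related cytoskeletal lists (blue) and in cell type marker lists (grey); black bars are medians and dashed lines mark 1.5-fold. The members centre on -0.025, neuron markers on -0.0081, microglia markers on 0.27 and choroid plexus markers on -0.43.

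Some cell type markers differed between the pools. All 6 microglia markers were higher by the brightest probe set, with a median of 0.27 and summed signals of 3792 and 3215. Of these, 2 were within their array error, and 1 of the 3 probe sets of Csf1r was lower, at -0.024. All 5 choroid plexus markers were lower, with a median of -0.43 and summed signals of 8233 and 9270. The 5 astrocyte markers were all higher too by the brightest probe set (median 0.10), but 4 of them were within their array error. Some dimmer probe sets of the astrocyte markers Slc1a3 and Gja1 were lower. Oligodendrocyte markers had a median of -0.049 over 5. The part of these cell types in the members' differences was not tested.

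Several of these genes lie on the chromosome of Crtc1. Of the members, 3 lie on that chromosome, and all 3 were lower by the brightest probe set, though not by the other probe set of Dync1li2: Tubb3, Dync1li2 and Dctn6, which are 550, 302 and 191 protein-coding genes from Crtc1 in the order of GRCm38.p6. Of the genes on the lists, 10 measured ones lie there and 9 were lower, with a median of -0.30. They include Haus8, 33 genes from Crtc1, Map1s, 30 genes away, Camsap3, 435 away, Hook2, 180 away, and Ppp2cb, 197 away. Of all 603 measured genes on that chromosome, 53.6% were lower and 15.8% at least 1.2-fold lower, against 48.8% and 9.65% of the genes elsewhere. Without the 3 members there, the median of the other 57 was -0.022, with 32 lower.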

How the data were processed

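Hypothalamic RNA of 2 pools, Crtc1 knockout and wild type, was measured on 1 Affymetrix array each. The deposited table holds signal intensities on a linear scale, and the sources used here do not name the summarising algorithm. With 2% of probe sets trimmed at each end, the mean signal came to 200.0 for either array, which fits a scaling by 1 factor per array.

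Of 45101 probe sets, 64 controls were left out, 34945 had 1 gene, 932 several and 9160 none in the platform annotation used. Symbols were updated by Entrez ID through RefSeq GRCm38.p6 (34741 matched), and no member changed. The scaling was kept, as the array medians (54.4 and 52.2) were within 0.1 in log2. Signals were floored at each array's 30th percentile and put on the log2 scale, and 22519 probe sets at or above the median mean were measured. The number of arrays limits the precision.

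Values were computed with Python 3.11.15, numpy 2.4.6, pandas 2.3.3 and statsmodels 0.14.6, and the steps were tested on simulated data. The 11 alternatives comprised 3 scalings (median centring, quantile normalization and loess with span 0.3), a floor at the 10th or at the 50th percentile, 16 added to each signal in place of a floor, no filter, a filter at the 70th percentile, averaged probe sets, no _s_at or _x_at probe sets, and annotation symbols. Full values were given to all neurofilament, MAP and stathmin genes, to the 4 members of largest difference in each other class, to members on the chromosome of Crtc1, and to up to 3 genes of each list; other members were named with their signals. Members and lists were chosen with earlier results of these data known.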

Additional observations from a re-analysis of the deposited data

How the results depend on the processing

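No paired analysis was possible because each genotype is 1 pooled array. None of the 60 measured members reached 1.5-fold under any of the 11 alternatives. With no filter on dim probe sets all 82 genes entered, and 6 were at least 1.5-fold higher and 2 lower. All 8 of these are among the 22 genes not measured. That setting also gave 11 at least 1.2-fold higher and 7 lower, a median difference of all measured members and dim ones of 0.0091, and medians of -0.0088 for beta tubulins and 0.38 for the kinesin-4 family. Dim genes pass these folds often. Among measured genes below a mean log2 signal of 8, 4.37% were at least 1.5-fold higher and 2.82% lower. At 1.2-fold these shares were 21% and 14.4%. Median centring, which moved the median of all genes to -0.055, gave -0.084 as the median difference of all measured members and 7 at least 1.2-fold lower. With the filter at the 70th percentile 1 member was at least 1.2-fold higher. The shares of all genes past these folds in the altered settings are not given here, so the counts show no excess or lack of members. Averaged probe sets gave a beta tubulin median of 0.012, and leaving out _s_at and _x_at probe sets gave a kinesin-2 median of -0.14. For single members, 647 of 651 values moved by less than the array error, though other floors and filters could not move the values of bright members. A members' difference smaller than about 0.16 on the log2 scale cannot be seen above the array error even at the highest signals, and one smaller than 0.32 at the lowest. The spread between animals is unknown.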

Other observations

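Probe sets that the annotation pairs with several genes, of which one is a member, were left out of all gene values. There are 8 of these, 6 of them measured. The probe set paired with both Tubb2b and Tubb2a-ps2 read 372 in knockout against 557 in wild-type RNA, a difference of -0.58 and the largest of any probe set that bears on a tubulin at a measured signal. The probe set of Tubb2b alone read 438 against 400, in the other direction. The probe set paired with Tuba1b and a gene model, read 6709 and 6892, a difference of -0.039. The other 4 measured ones, paired with Tuba1c or with Tuba3a and Tuba3b, differed by -0.046 to 0.27.

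Some of the genes not measured read far apart in the pools at dim signals. Kif18b, a mitotic kinesin, read 20.7 in knockout and 58.4 in wild-type RNA. Klc3, a light chain known from testis, read 53.4 and 23.1, and Kif26a 49.7 and 10.3. These are single readings near background with no second probe set.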
